A study of Homo sapiens with 12 samples.

Results

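The genes described here are 6 genes of multiple myeloma, namely FGFR3, WHSC1 (now named NSD2), MAF and the D cyclins CCND1, CCND2 and CCND3. They were chosen by name, as genes that recurrent myeloma translocations drive and as the cyclins of early G1, and all 6 were found among the 38478 genes of the table. The choice was made with earlier results of these data known. Their RNA was measured in OPM-1 cells, an established human multiple myeloma line, after 48 h of treatment. The 4 groups of 3 samples received DMSO, lenalidomide (LEN, 0.1 µM), the RUNX inhibitor AI-10-104 (1 µM), or LEN and AI-10-104 together at the same doses (LEN+AI-10-104). All groups came from the same line, so the samples speak for 1 line only. The study's methods describe the 3 samples of each group as biological replicates.

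In myeloma, translocations place oncogenes beside the immunoglobulin heavy chain locus on chromosome 14, whose enhancers are strongly active in plasma cells. FGFR3, a receptor tyrosine kinase, and NSD2, a histone H3 lysine methyltransferase, are neighbours that one such translocation drives together, whereas others drive CCND1, CCND3 or the transcription factor MAF. D cyclins bind CDK4 and CDK6 and start the phosphorylation of the RB protein, and myeloma cells nearly always express at least one of them. LEN directs the ubiquitin ligase receptor cereblon to the transcription factors IKZF1 and IKZF3, which are then degraded. RUNX proteins are transcription factors, and AI-10-104 blocks their binding to the partner CBFβ. The labels do not give the translocations of OPM-1, and none was read from these data.

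Values are RPKM, that is reads on a gene scaled to its length and to the library's reads on all genes, which numbered 16352548 to 31386210 per sample. The LEN+AI-10-104 libraries held 16352548 to 20419807 reads and those of DMSO 21297486 to 31386210. All 8 plasma cell markers examined were present, with means over the 12 samples of 22.9 to 523 RPKM, and none of the markers of B cells, T cells, myeloid cells or stroma that were in the table reached a mean of 0.5 RPKM. The summed level of the plasma cell markers was 1294 to 1359 RPKM in DMSO samples, 1239 to 1280 after LEN, 1484 to 1539 after AI-10-104 and 1301 to 1378 after the combination. XBP1, a factor of the secretory programme and the most abundant of the 8, differed most in RPKM. It averaged 509.1 RPKM in DMSO and 632 RPKM in AI-10-104. SDC1 (146.5 and 148.9 RPKM) and PRDM1 (33.4 and 33.4 RPKM) hardly differed. With AI-10-104, the limma test described below called 1 of the 8 higher, which was not XBP1. XBP1 passed the adjusted p there (log2 fold change 0.31, limma adjusted p = 0.001) and lay just under the fold threshold of that test. When LEN was added to AI-10-104, XBP1 was called lower (log2 fold change -0.35, limma adjusted p = 0.00061). The part of the shift in the summed level in the results below was not tested. In bulk samples, fewer expressing cells and less RNA per cell cannot be told apart.

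The promoters of MAF and CCND3 are shown because these are the members that differed most clearly between groups. Each is 250 bases before a RefSeq start on GRCh38.p14, 5′ to 3′ along the minus strand, with the letters GGGAA or their reverse complement, the core bound by Ikaros family proteins, in capitals. The MAF window lies at chr16:79600738-79600987 and the CCND3 window, one of 3 starts listed for that gene, at chr6:42048689-42048938.
MAF: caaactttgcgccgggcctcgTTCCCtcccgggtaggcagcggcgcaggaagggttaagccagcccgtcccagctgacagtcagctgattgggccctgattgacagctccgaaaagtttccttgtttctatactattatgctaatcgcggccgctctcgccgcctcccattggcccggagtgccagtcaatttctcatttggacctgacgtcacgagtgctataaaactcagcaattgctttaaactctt
CCND3: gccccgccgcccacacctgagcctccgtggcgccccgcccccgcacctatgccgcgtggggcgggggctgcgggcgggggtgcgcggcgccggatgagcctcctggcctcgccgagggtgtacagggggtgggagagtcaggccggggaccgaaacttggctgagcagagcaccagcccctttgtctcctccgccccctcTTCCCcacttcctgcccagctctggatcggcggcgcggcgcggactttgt
The MAF window held GGGAA at 1 place, 229 bases before the start, and the CCND3 window at 1 place, 50 bases before it. On either strand, 59% of 35116 promoter windows of this length held these letters. The RUNX letters TGTGGT or TGCGGT, on either strand, were in neither window and in 16.3% of all windows. The letters TGCTGAC, part of the site that MAF proteins bind, were in neither and in 3.43% of all windows. Of the other 2 CCND3 windows, the one at chr6:41939206-41939455 held TGCTGAC at 1 place, 131 bases before the start, and GGGAA at 1 place, 53 bases before it. The one at chr6:41941809-41942058 held neither, and both lacked the RUNX letters. A match or its absence describes these letters only. The FGFR3 and NSD2 windows held no RUNX letters either, and CCND1 and CCND2 had no entry.

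FGFR3 and CCND2 were among the most abundant RNAs of OPM-1 cells, WHSC1 was well expressed, CCND3 and MAF were moderate, and CCND1 was barely detected. In DMSO, FGFR3 (chr4:1793293-1808872, plus strand, GENCODE on GRCh38) stood at 600.1 ± 7.53 RPKM (SD, n = 3), rank 69 of 38478 genes. CCND2 (chr12:4269771-4305353, plus strand) followed at 451.9 ± 12.9 RPKM, rank 93. WHSC1 (chr4:1871393-1982207, plus strand) stood at 81.9 ± 1.65 RPKM, rank 788. CCND3 (chr6:41934934-42050357, minus strand) stood at 13.7 ± 0.562 RPKM, rank 4283, and MAF (chr16:79585843-79600737, minus strand) at 5.89 ± 0.431 RPKM, rank 6576. This order held in 12 of 12 samples, with no overlap between neighbours in it, from FGFR3 through CCND2, WHSC1, CCND3 and MAF to CCND1. The place of MAF depends on the gene length used. The deposited length of MAF was 30828 bases, 4.41 times the 6999 exon bases of GENCODE, and that of CCND3 was 3161 against 5761 bases. Were all counted reads on GENCODE exons, MAF would average 26.8 and CCND3 7.89 per kilobase of them, which would turn their order around. The deposited length of MAF also exceeds the span of its coordinates above. Part of its reads may therefore lie outside these exons, and the order of MAF and CCND3 was not settled. Comparisons of a gene with itself between groups do not depend on its length. For MAF, the comparisons below are of all reads counted under its name, and whether these lay on its exons was not tested.

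**Figure D1:**
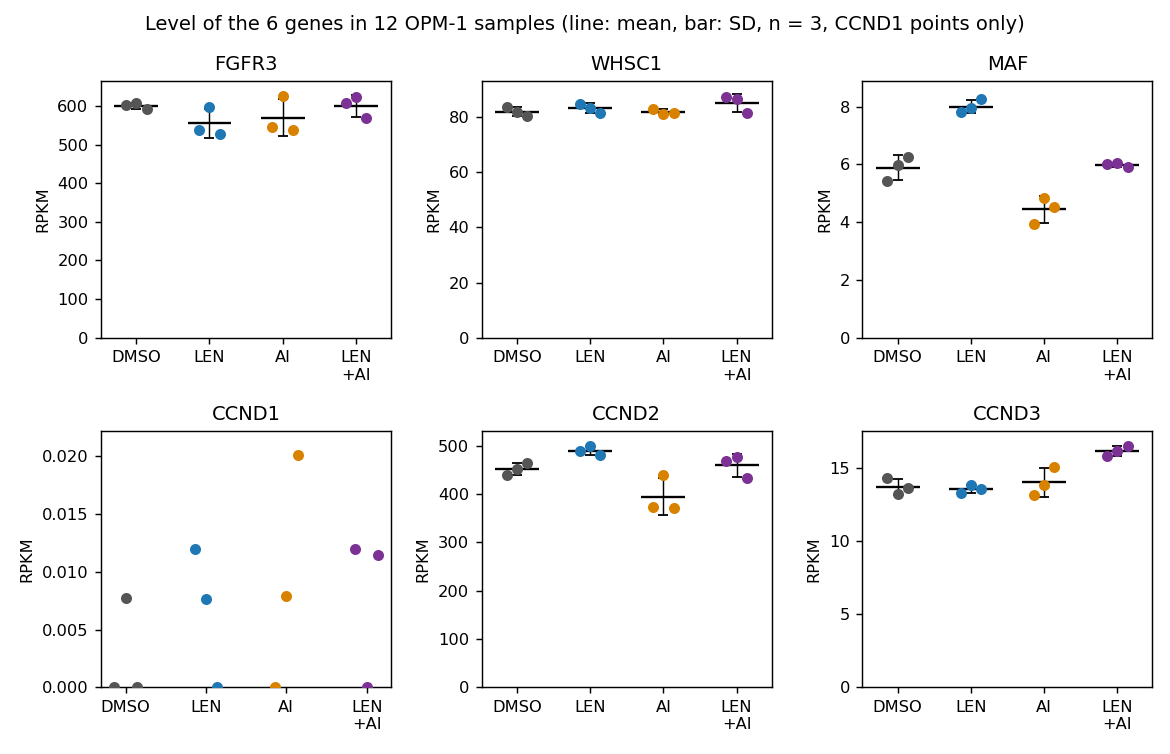
RPKM of each gene (vertical axes, each from 0) in the 12 samples, by treatment, where AI stands for AI-10-104; points are samples, lines means and bars SD (n = 3), and CCND1 is shown as points only. MAF lies between 7.80 and 8.25 RPKM in LEN and between 3.94 and 4.85 RPKM in AI-10-104, whereas no CCND1 value exceeds 0.0201 RPKM.

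MAF, a basic leucine zipper transcription factor, was the member that LEN and AI-10-104 moved, in opposite directions. In DMSO its 3 samples held 5.42, 5.98 and 6.27 RPKM. The LEN samples held 7.80, 7.95 and 8.25 RPKM, all above every DMSO sample. The AI-10-104 samples held 3.94, 4.85 and 4.54 RPKM, all below every DMSO sample. With both agents the values were 6.01, 6.03 and 5.90 RPKM, within the DMSO range. MAF rose by 35.5% with LEN (log2 fold change 0.44, 95% interval 0.28 to 0.60, limma adjusted p = 0.013). It fell with AI-10-104 (log2 fold change -0.40, interval -0.56 to -0.24, limma adjusted p = 0.010). Fold changes are on the scale of log2(RPKM + 0.1), adjusted p-values are Benjamini-Hochberg values over the 11241 genes tested, and a gene was called at an adjusted p of at most 0.05 and a log2 fold change of at least 0.32 in size.

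The same shifts were measured on the background of the other agent, where each effect rests on other samples than before but the LEN and AI-10-104 samples now serve as references. Added to AI-10-104, LEN raised MAF (log2 fold change 0.43, interval 0.27 to 0.58, limma adjusted p = 0.0055). Added to LEN, AI-10-104 lowered it (log2 fold change -0.41, interval -0.57 to -0.26, limma adjusted p = 0.0079). LEN+AI-10-104 against DMSO gave 0.03 (interval -0.13 to 0.18, limma adjusted p = 0.88). The interaction, the difference between the effect of LEN with and without AI-10-104, was -0.01 (interval -0.23 to 0.21, limma adjusted p = 0.97). The call with LEN was lost without LEN replicate 1 or LEN replicate 3, where the fold changes were 0.46 and 0.42 and the limma adjusted p-values 0.051 and 0.064. The call with AI-10-104 was lost without AI-10-104 replicate 1 (log2 fold change -0.32, limma adjusted p = 0.032), where it came to lie just under the fold threshold, and when only the compared groups were fitted (limma adjusted p = 0.08).

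MAF was the 1 of 5 tested members called in each of these 4 comparisons, so the count describes MAF and not the members as a group. Of all tested genes, 0.587% were called higher with LEN and 0.0623% lower. With AI-10-104, 0.685% were called higher and 1.09% lower. Adding AI-10-104 to LEN gave 0.872% higher and 0.81% lower, and adding LEN to AI-10-104 gave 3.16% higher and 0.471% lower. For LEN+AI-10-104 against DMSO, where 2.3% of genes were called higher and 0.641% lower, limma called 0 members, with 1 at an unadjusted p under 0.05, and limma-voom on reads computed back from the RPKM values called 0. For the interaction, limma called 0 of 5 members and 0% of all genes. There 2 members and 1621 genes had an unadjusted p under 0.05, and limma-voom called 0 members and 3 genes. Without AI-10-104 replicate 2, 540 genes and 0 members passed the interaction test, and without any other single library at most 2 genes did. This library was 0.271 from the mean of the other 2 of its group (root mean square log2 difference, all tested genes), within the 0.235 to 0.295 of all 12 libraries. Over the 8891 genes that averaged 2 RPKM or more it was the farthest of the 12, at 0.173, and the other 11 lay between 0.104 and 0.143.

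**Figure D2:**
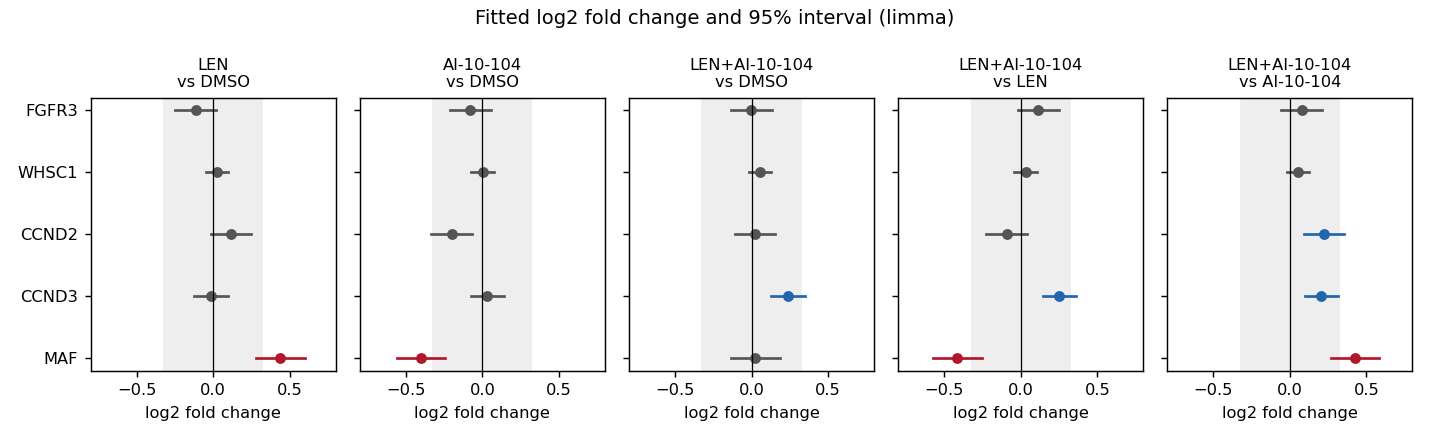
Log2 fold change (horizontal axes) of the 5 tested members in 5 comparisons, with 95% intervals from limma; red marks called genes, blue an adjusted p of at most 0.05 under the fold threshold, and the grey band that threshold. MAF is red in 4 of the 5 panels, and CCND3 is blue in the 3 panels of the combination.

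Genes that MAF is known to activate in myeloma were measured beside it, and these too were listed with earlier results of these data known. ITGB7, the integrin β7 subunit that serves adhesion to stroma, was itself among the most abundant RNAs. Its DMSO samples held 795.9, 758 and 732 RPKM and the LEN samples 926, 951 and 923 RPKM. The AI-10-104 samples held 482, 535 and 498 RPKM, and those with both agents 689.7, 689.2 and 688.8 RPKM. The 4 groups did not overlap, with LEN highest, then DMSO, LEN+AI-10-104 and AI-10-104. ITGB7 fell with AI-10-104 (log2 fold change -0.59, limma adjusted p = 9e-06) and when AI-10-104 was added to LEN (-0.44, limma adjusted p = 0.00014). It rose when LEN was added to AI-10-104 (0.45, limma adjusted p = 0.0002). With LEN alone its log2 fold change was 0.29 (limma adjusted p = 0.0051), under the fold threshold.

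CCR1, a chemokine receptor, averaged 86.9 RPKM in DMSO and 111.7 RPKM in LEN. Its means were 85.2 RPKM with AI-10-104 and 103.4 RPKM with both agents. It rose with LEN (log2 fold change 0.36, limma adjusted p = 0.037), and its value with AI-10-104 was -0.02 (interval -0.18 to 0.13, limma adjusted p = 0.88). NUAK1, a kinase of the AMPK family, averaged 14.5, 16.1, 11.6 and 12.2 RPKM in the same order of groups. It fell when AI-10-104 was added to LEN (log2 fold change -0.40, limma adjusted p = 0.00012). Its values against DMSO were -0.31 with AI-10-104 and -0.25 with both agents, with limma adjusted p-values of 0.00067 and 0.0023, both under the fold threshold. Of the 3 targets, 1 was called in LEN against DMSO, 1 in AI-10-104 against DMSO, 2 in LEN+AI-10-104 against LEN and 1 in LEN+AI-10-104 against AI-10-104. The median log2 fold changes of the 3 were 0.29, -0.31, -0.40 and 0.28 in these comparisons, and those of all tested genes 0.00, 0.01, 0.02 and 0.02. In LEN+AI-10-104 against DMSO, where MAF was at 0.03, 0 of the 3 were called and all 3 had an unadjusted p under 0.05. Their directions differed there, with ITGB7 at -0.14, NUAK1 at -0.25 and CCR1 at 0.25. Without AI-10-104 replicate 2, 2 targets rather than 1 were called in each of the comparisons with AI-10-104 alone, and ITGB7 passed the interaction test. Calls over all 11241 genes also rose in that fit, to 144 higher and 299 lower with AI-10-104, from 77 and 122. For LEN added to AI-10-104 they rose to 661 and 103, from 355 and 53, and 540 genes passed the interaction test.

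**Figure D3:**
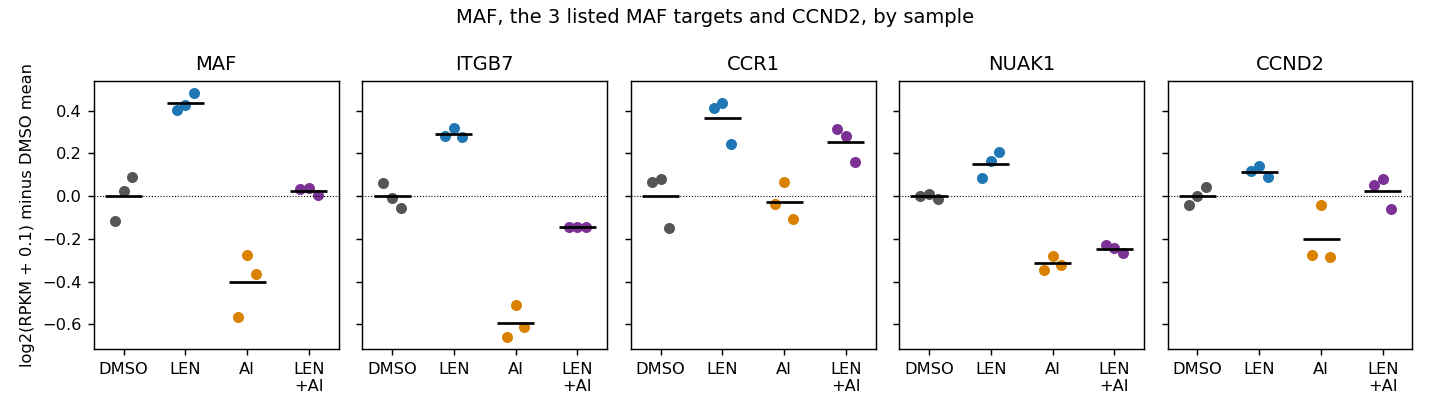
Log2(RPKM + 0.1) of MAF, its 3 listed targets and CCND2 relative to the DMSO mean (vertical axis) in the 12 samples, by treatment, where AI stands for AI-10-104; points are samples and lines group means. MAF and ITGB7 are highest in LEN and lowest in AI-10-104, and CCR1 in AI-10-104 overlaps DMSO.

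Of the other MAF family members and partners, 6 of 8 passed the filter of a mean of at least 0.5 RPKM. Limma and limma-voom called 0 of them in every comparison, and 0 to 2 had an unadjusted p under 0.05. The small MAF protein gene MAFG stood at 29.8 RPKM in DMSO. Its log2 fold change was -0.23 with AI-10-104 (limma adjusted p = 0.0072) and 0.26 when LEN was added to AI-10-104 (limma adjusted p = 0.0034). Both were under the fold threshold. MAFG and MAFK were among the 540 of all tested genes that passed the interaction test when AI-10-104 replicate 2 was left out.

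Among the D cyclins, CCND2 made up nearly all of the RNA, CCND3 a small share and CCND1 almost none. In DMSO, 97.05% ± 0.181 (SD, n = 3) of the summed D cyclin RPKM was CCND2 and 2.95% ± 0.181 was CCND3. LEN samples had a CCND3 share of 2.70%, AI-10-104 samples 3.46% and those with both agents 3.41%. Exact two-sided permutation tests against DMSO gave p = 0.1, p = 0.2 and p = 0.1, where 0.1 is the smallest that 3 against 3 samples allow. CCND1 (chr11:69641156-69654474, plus strand) had 0 to 2 reads per sample and 8 reads in all 12, under the floor of 3 reads, which corresponds to 0.0223 to 0.0428 RPKM depending on the library. It was not tested, and a difference between groups was not detectable at this depth.

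CCND2 did not reach a call in any comparison, although 2 of its 3 AI-10-104 samples lay lowest of all 12. The DMSO samples held 439, 451 and 465 RPKM and the LEN samples 489.5, 498 and 480.1 RPKM. The AI-10-104 samples held 374, 439 and 370.3 RPKM, and those with both agents 468, 477 and 433 RPKM. The LEN samples lay above all the others, and AI-10-104 replicate 2 stood close to the lowest DMSO sample while the other 2 lay well below. The log2 fold change was 0.11 with LEN (interval -0.02 to 0.25, limma adjusted p = 0.55) and -0.20 with AI-10-104 (interval -0.33 to -0.07, limma adjusted p = 0.081). LEN added to AI-10-104 gave 0.22 (interval 0.09 to 0.36, limma adjusted p = 0.03), under the fold threshold. That adjusted p rose to 0.096 when only the compared groups were fitted, to 0.088 with every gene above 0 RPKM included, and to between 0.096 and 0.12 without AI-10-104 replicate 1 or 3 or LEN+AI-10-104 replicate 1 or 2. Without a variance trend it was 0.05, just over the threshold. With limma-voom the adjusted p-values were 0.01 for AI-10-104 against DMSO and 0.0037 for LEN added to AI-10-104. Without AI-10-104 replicate 2, an alternative chosen after the data were seen, the value with AI-10-104 was -0.28 (limma adjusted p = 0.0027) and that of LEN added to it 0.30 (limma adjusted p = 0.0013), both still under the fold threshold.

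CCND3 was higher in LEN+AI-10-104 than in each other group, by a modest amount. The samples with both agents held 15.8, 16.2 and 16.6 RPKM and the DMSO samples 14.3, 13.2 and 13.6 RPKM. The LEN samples held 13.3, 13.9 and 13.6 RPKM and the AI-10-104 samples 13.2, 13.8 and 15.1 RPKM. No sample of another group reached those with both agents. The log2 fold change of the combination was 0.24 against DMSO (interval 0.13 to 0.35, limma adjusted p = 0.014), 0.25 against LEN (0.14 to 0.36, limma adjusted p = 0.015) and 0.21 against AI-10-104 (0.10 to 0.31, limma adjusted p = 0.021). All 3 passed the adjusted p with every library, and none the fold threshold. Leaving out 1 library ended the pass in each comparison, with limma adjusted p = 0.066 against DMSO without DMSO replicate 2. Against LEN it was 0.052 to 0.07 (limma adjusted p) without LEN replicate 1 or 3 or LEN+AI-10-104 replicate 2 or 3. Against AI-10-104 it was 0.053 to 0.093 (limma adjusted p) without AI-10-104 replicate 1 or any of the 3 LEN+AI-10-104 replicates, and 0.067 when only the compared groups were fitted. By adjusted p alone, 5.64%, 2.48% and 9.13% of all tested genes were higher in these comparisons. The interaction of CCND3 was 0.22 (interval 0.07 to 0.37, limma adjusted p = 0.28). The libraries with both agents were also the shallowest, and the part of depth was not tested.

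Partners of the D cyclins and the RB axis comprised 19 genes, of which 17 were tested. CDK4 and CDK6, the kinases that D cyclins activate, averaged 104.3 and 55.6 RPKM in DMSO and were called in no comparison. CDKN2C and CDKN1C, which encode inhibitors of these and other cyclin-dependent kinases, were listed at 0. With LEN, 0 of 17 were called by limma, with 2 at an unadjusted p under 0.05, and limma-voom called 1, CCNE2. With AI-10-104, 1 of 17 was called, the CDK4 and CDK6 inhibitor gene CDKN2B, which averaged 4.06 RPKM against 5.28 in DMSO (log2 fold change -0.36, limma adjusted p = 0.028). CCNE1, the cyclin that activates CDK2, fell in LEN+AI-10-104 against DMSO (-0.37, limma adjusted p = 0.005) and against LEN (-0.40, limma adjusted p = 0.0055). With AI-10-104 alone CCNE1 was at -0.31 (limma adjusted p = 0.022), just under the fold threshold. The combination against AI-10-104 gave -0.07 for CCNE1 (limma adjusted p = 0.5). CCNE2 rose in the combination against DMSO (0.50, limma adjusted p = 0.021). CDKN1A, encoding p21, also fell when AI-10-104 was added to LEN, from 0.89 to 0.425 RPKM (-0.90, limma adjusted p = 0.03). This rests on few reads, 55 to 68 per sample in LEN and 18 to 23 in the shallower LEN+AI-10-104 libraries. The mean of CDKN1A with both agents lay under 0.5 RPKM. CDKN2A, CDKN2B and CDKN2D rose when LEN was added to AI-10-104, by log2 0.35, 0.38 and 0.35, with limma adjusted p-values of 0.038, 0.013 and 0.033, and the call of CDKN2D was lost with limma-voom. With AI-10-104 against DMSO, limma-voom called 3 of the 17 rather than 1, CCNE2, CDKN2A and CDKN2B, and for the combination against DMSO it called CDKN1A beside CCNE1 and CCNE2. Limma-voom calls over all 11241 genes differed too. They were 100 higher and 4 lower with LEN (limma 66 and 7) and 114 and 168 with AI-10-104 (limma 77 and 122). For the combination against DMSO they were 306 and 78 (limma 259 and 72). By limma, 1.09% of all tested genes were called lower with AI-10-104, and 3.16% higher when LEN was added to it. The list's median log2 fold changes were between -0.03 and 0.04 in the 5 comparisons. Leaving out AI-10-104 replicate 2, 4 of the 17 genes rather than 1 were called with AI-10-104 and 4 rather than 0 passed the interaction test. Over all 11241 genes, that fit called 144 higher and 299 lower with AI-10-104, rather than 77 and 122. There 540 genes rather than 0 passed the interaction test.

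FGFR3 and WHSC1 differed little between the groups. The DMSO samples held 602, 607 and 592 RPKM of FGFR3 and the LEN samples 537, 599 and 528.5 RPKM. The AI-10-104 samples held 547, 625 and 537.5 RPKM, and those with both agents 608, 622.5 and 569.7 RPKM. LEN and AI-10-104 each had 1 sample within or above the DMSO range and 2 below it, and every pair of groups overlapped. The log2 fold change was -0.12 with LEN (interval -0.25 to 0.02, limma adjusted p = 0.57), -0.08 with AI-10-104 (-0.21 to 0.06, limma adjusted p = 0.49) and 0.00 with both (-0.14 to 0.13, limma adjusted p = 1). The interaction was 0.19 (interval 0.00 to 0.38, limma adjusted p = 0.34). Without AI-10-104 replicate 2, an alternative chosen after the data were seen, the interaction of FGFR3 was 0.26 (limma adjusted p = 0.06). Its value with AI-10-104 was then -0.15 (limma adjusted p = 0.093), and neither passed.

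WHSC1 held 83.7, 81.8 and 80.4 RPKM in DMSO and 84.8, 83.4 and 81.3 RPKM in LEN. It held 83.0, 81.2 and 81.6 RPKM in AI-10-104 and 87.3, 86.4 and 81.4 RPKM with both agents. The highest of the 12 values was 1.09 times the lowest, against 2.1 times for MAF. In the 5 comparisons between groups its log2 intervals lay within -0.07 to 0.13, so that changes beyond these bounds lay outside the 95% intervals. The small RNA gene SCARNA22 lies inside WHSC1 on the same strand, and their reads cannot be told apart with certainty by a count per gene.

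**Figure D4:**
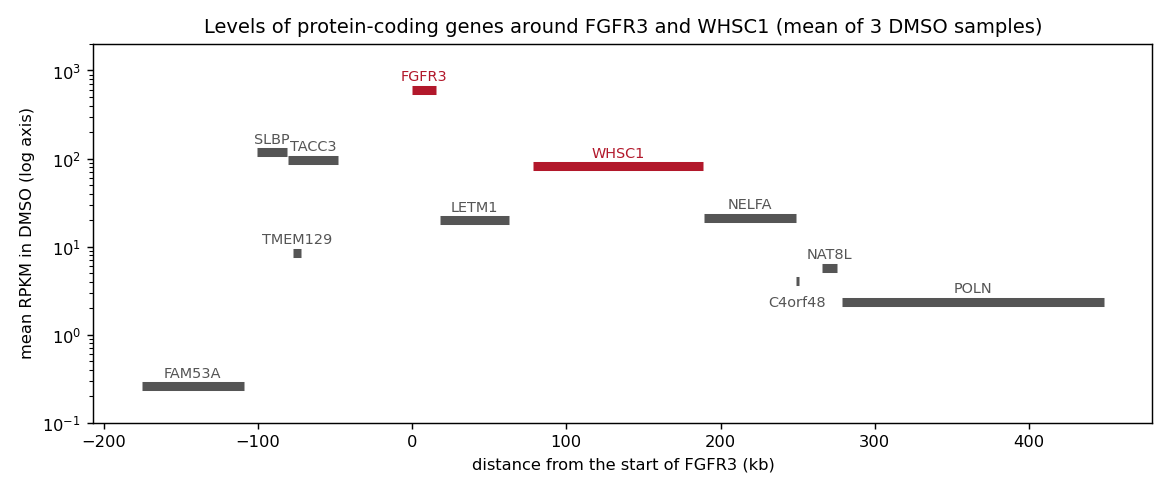
Mean RPKM in the 3 DMSO samples (vertical log axis) of the protein-coding genes within 200 kb of FGFR3 or WHSC1, drawn from start to end by distance from the start of FGFR3 in kb. FGFR3 at 600.1 RPKM is highest, with SLBP and TACC3 near 100 RPKM and WHSC1 at 81.9 RPKM.

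The genes around FGFR3 and WHSC1 spanned a wide range of levels. FGFR3 stood well above LETM1, which lies between the pair on the opposite strand and held 20.04 ± 0.347 RPKM in DMSO. TACC3, a mitotic spindle gene upstream of FGFR3, held 96.3 RPKM, SLBP, which binds histone mRNA, 118 RPKM, and NELFA, downstream of WHSC1, 21.2 RPKM. FAM53A was at 0.259 RPKM. Of 7 tested neighbours within 200 kb of FGFR3, limma called 0 in any comparison, and of 10 around WHSC1 it called 1, POLN, in LEN+AI-10-104 against DMSO (log2 fold change 0.34). Of the neighbours of CCND1, CCND2 and CCND3, 1, 2 and 10 were tested and limma called 0, and neither neighbour of MAF reached 0.5 RPKM. The antisense gene CCND2-AS1 overlaps CCND2 and averaged 0.305 RPKM. ORAOV1 overlaps CCND1 on the opposite strand and averaged 3.003 RPKM. Whether the counts used strand is not stated, so the assignment of reads in these overlaps is uncertain.

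Genes that act with FGFR3 and NSD2 were examined in the same fits. FGFR1 and FGFR2, the related receptors, had 0 to 3 reads per sample, and FGFR4 averaged 0.449 RPKM in DMSO, so FGFR3 was by far the most abundant of the 4. The adaptor GRB2 stood at 42.1 RPKM and the phosphatase PTPN11 at 38.7 RPKM. Of 11 receptors and adaptors 8 were tested, and limma and limma-voom called 0 in all 6 comparisons, with 0 to 3 at an unadjusted p under 0.05. Of 8 genes of H3K36 and H3K27 methylation, led by EZH2 at 36.6 RPKM and KDM2A at 32.9 RPKM, both tools also called 0 in all 6, with 0 to 4 at an unadjusted p under 0.05.

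Genes of ERK feedback, which report signalling below receptors such as FGFR3, comprised 14 genes, of which 10 were tested. DUSP5, a phosphatase that acts on ERK, fell with AI-10-104 from 19.7 to 13.9 RPKM (log2 fold change -0.50, limma adjusted p = 0.00042) and when AI-10-104 was added to LEN (-0.41, limma adjusted p = 0.0015). DUSP6, another ERK phosphatase, stood at 25.5 RPKM in DMSO and 28.9 RPKM in LEN, and at 21.9 RPKM with AI-10-104 and 25.1 RPKM with both agents. Its log2 fold changes of 0.18 with LEN and -0.21 with AI-10-104 passed the adjusted p (limma, 0.018 and 0.0027) under the fold threshold. With LEN, limma called 0 of the 10, with 5 at an unadjusted p under 0.05, and limma-voom called 1, ETV1. Of all tested genes, limma-voom called 100 higher with LEN and limma 66. The list's median was 0.12 with LEN and -0.08 with AI-10-104, against 0.00 and 0.01 over all tested genes. DUSP4 was at -0.26 both with AI-10-104 and when AI-10-104 was added to LEN (limma adjusted p = 0.021 and 0.022), under the fold threshold. It was called beside DUSP5 with AI-10-104 when AI-10-104 replicate 2 was left out. That fit called 299 of all tested genes lower with AI-10-104, rather than 122.

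**Figure D5:**
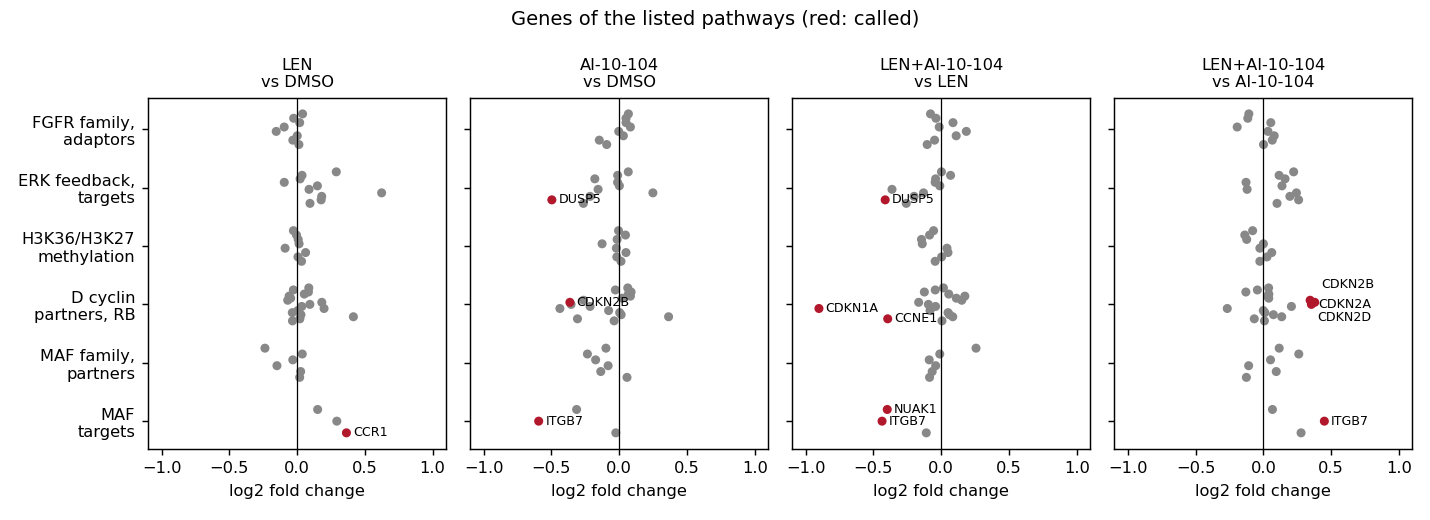
Log2 fold change (horizontal axes) of the tested genes of 6 lists (rows) in 4 comparisons; each point is a gene, red points were called by limma, and vertical offsets within a row only separate points. Few genes of any list were called, among them ITGB7 in 3 panels and DUSP5 in 2.

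The genes whose log2 levels followed each member most closely over the 12 samples are given as a description, since the samples share treatments and libraries. For MAF these were TCF4, an E protein transcription factor (Pearson r = 0.973), PLEKHA2, which encodes a phosphoinositide-binding protein (0.967), and DUSP6 (0.965), of 11240 genes compared. ITGB7 was the 13th (0.941) and CCND2 the 57th (0.89). TCF4 averaged 5.06 RPKM in DMSO and 5.92 RPKM in LEN, and 4.22 RPKM with AI-10-104 and 4.94 RPKM with both agents, the order of group means that ITGB7 also had. For CCND2 they were AP5S1 (0.961), STK11 (0.95) and YTHDF1 (0.941), and for CCND3 IGFBP7 (0.903), MYADM (0.901) and PLA2G15 (0.901). For FGFR3 they were LOC105369340 (0.942), PIDD1 (0.925) and NBEAL2 (0.924), and for WHSC1 ALDH4A1 (0.908), FURIN (0.905) and WWP2 (0.89).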

How the data were processed

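Poly(A) RNA was sequenced in 12 samples, 3 per group, grouped by the labels. The authors deposited RPKM values per gene with gene lengths. Per the labels, GRCh38, FastQC, STAR, Cuffnorm and DESeq2 were used, with versions and the strand setting of counting not given in the sources used here. RPKM times length had the same sum in every sample, and whole reads (within 0.01) came back for 100% of values, 16352548 to 31386210 per sample. Of 38478 gene names, 28 were date numbers. Reads without molecular identifiers are not independent, so floors cover counting error only.

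Log2(RPKM + 0.1) of the 11241 genes averaging 0.5 RPKM or more was tested with limma 3.58.1 in R 4.3.3, with 1 mean per group, all 12 samples, a variance trend and Benjamini-Hochberg adjustment, after a check on simulated data. A gene was called at an adjusted p up to 0.05 with a log2 fold change of at least 0.32 (1.25-fold), and the interaction the adjusted p only. Alternatives were other pseudocounts, filters, scalings, samples, a replicate block and limma-voom. Gene positions are from GENCODE 44, promoters from RefSeq. Named were the 6 members, called and most abundant genes of the pathway lists, neighbours within 200 kb and the 3 genes most correlated with each member. A gene of these lists is not reported here. Members and lists were chosen with earlier results of these data known.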

Additional observations from a re-analysis of the deposited data

Results flagged for a closer look

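The log2 fold change of FGFR3 with LEN was negative without AI-10-104 and positive with it. Neither passed, at -0.12 (limma adjusted p = 0.57) and 0.08 (limma adjusted p = 0.41). Every LEN sample lay below the DMSO mean of log2 levels and every LEN+AI-10-104 sample above the AI-10-104 mean, with an interaction of 0.1926 on the log2 scale (limma adjusted p = 0.34), so the difference did not pass the test of the interaction. The margins were narrow, with LEN replicate 2 at 598.7 RPKM against a DMSO mean of 600.1 RPKM. On the RPKM scale LEN+AI-10-104 replicate 3 lay just below the AI-10-104 mean, at 569.7 against 569.9. The same signs held for CDKN2D, which encodes an inhibitor of CDK4 and CDK6, with an interaction of 0.4144 (limma adjusted p = 0.28). CDKN2D was among the 540 of all tested genes that passed the interaction test without AI-10-104 replicate 2, so its result depended on 1 library. For CDKN2D, LEN alone gave -0.07 (limma adjusted p = 0.9) and LEN added to AI-10-104 gave 0.35 (limma adjusted p = 0.033). CDKN2D averaged 4.10 RPKM in LEN against 4.30 RPKM in DMSO, and 4.57 RPKM with both agents against 3.59 RPKM with AI-10-104.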

How the results depend on the processing

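Of 680 alternative values of the members' fold changes, 654 kept their direction and side of the threshold, 4 became calls, 4 lost a call and 18 changed sign, of which 0 belonged to a called value. The number of members called with LEN was 0 to 1 over the fits that left out 1 library, with 0 without LEN replicate 1 or 3. With AI-10-104 it was 0 without AI-10-104 replicate 1 and 0 when only the compared groups were fitted, and 0 to 1 over the fits without 1 library. With no fold threshold, the counts were 1, 2 and 3 for LEN+AI-10-104 against DMSO, LEN and AI-10-104. They came from CCND3 and CCND2 in addition to MAF, which was called against LEN and against AI-10-104 with the threshold too. Without AI-10-104 replicate 2 and with no fold threshold, a setting chosen after the data were seen, they were 2 for AI-10-104 against DMSO and 1, 2 and 3 for the combination. Dropping the fold threshold accounts for the added members by construction, except for CCND2 with AI-10-104, whose cause was not tested. With the fold threshold kept, leaving out 1 library left the counts of the combination at 0, 1 and 1.

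All values that changed sign were small. Under quantile normalization they were 0.0164 for FGFR3 and -0.0248 for MAF in LEN+AI-10-104 against DMSO, and under median-ratio rescaling -0.0071 for WHSC1 with AI-10-104. Without 1 library, FGFR3 in the combination against DMSO ran from -0.0277 to 0.0362 and MAF -0.032 to 0.0712, WHSC1 with AI-10-104 -0.0129 to 0.016, CCND2 in the combination against DMSO -0.0051 to 0.0651, CCND3 -0.0413 to 0.0166 with LEN and -0.0216 to 0.0758 with AI-10-104, and the interaction of MAF -0.0938 to 0.0531. The cause was not tested.

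With the replicate number as a block, members called were 1, 1, 0, 1, 1 and 0 in the 6 comparisons, as without it. Deviations of samples with the same number correlated at a mean r of 0.052 (-0.027 to 0.155 over 18 pairs) against -0.026 for different numbers, and 12 of 12 libraries correlated best with their own number, which is a hint from the data and not the design. At or below 3 reads, as for CCND1, depth sets the limit.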
